A study of Homo sapiens with 6 samples.

Results

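The microRNA (miRNA) hairpins described here belong to the miR-17-92 cluster and to its paralogous clusters miR-106a-363 and miR-106b-25. They were taken by name from a list of 15 hairpins of these clusters, and 9 of the 147 hairpins in the deposited table matched. They are hsa-mir-18a, hsa-mir-19a, hsa-mir-19b-1 and hsa-mir-92a-1 of miR-17-92, hsa-mir-19b-2 and hsa-mir-92a-2 of miR-106a-363, and hsa-mir-106b, hsa-mir-93 and hsa-mir-25 of miR-106b-25, named without the species prefix from here on. The other names in the list (mir-17, mir-18b, mir-20a, mir-20b, mir-106a and mir-363) are not analysed here. Small RNAs were sequenced from HCT116 cells, a human colorectal carcinoma line, in which DICER had been knocked out in both groups. The cells received a plasmid, either for intact DICER (3 samples, DICER-WT rescue) or for DICER without its helicase domain (3 samples, DICER-delHelicase rescue), and RNA was taken 48 h later. Both groups thus depend on transient expression of a plasmid-borne DICER, whose level these sources do not state. Nor do they say whether the knockout line is 1 clone or whether the samples came from separate cultures.

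For each hairpin the authors deposited 1 "global variation" score per construct, with no value per sample. What was computed to reach it is not stated in the labels or the file header. The samples' depth is likewise unknown, so no difference below has a replicate check, an interval or a test. The table holds no abundance, so neither the identity of the cell line nor the level of either DICER construct could be checked in it. A change is the DICER-delHelicase score minus the DICER-WT score.

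As background, a primary miRNA transcript is cropped by DROSHA to a short precursor hairpin, and DICER then cuts off the terminal loop. Where it cuts the 3′ arm is where the miRNA from that arm (3p) begins, which also fixes the seed, the bases near the 5′ end that pair with target mRNAs. The helicase domain of DICER lies close to the loop side of a bound precursor and also binds the cofactor TRBP. The miR-17-92 transcript is driven by MYC and is often amplified or overexpressed in tumours, where its miRNAs promote proliferation and survival. Its paralogs arose by duplication, so related precursors sit in different transcripts.

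The 9 hairpins yield 7 distinct 3p miRNAs with 5 distinct seeds. Their mature sequences are shown because shared and unshared seeds group the results. They are the RefSeq sequences (GRCh38.p14), written 5′ to 3′ with the seed (bases 2 to 8) in capitals.
miR-19a-3p: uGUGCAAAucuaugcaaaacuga
miR-19b-3p: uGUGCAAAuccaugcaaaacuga
miR-92a-3p: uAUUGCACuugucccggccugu
miR-25-3p: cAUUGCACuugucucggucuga
miR-18a-3p: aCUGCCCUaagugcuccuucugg
miR-93-3p: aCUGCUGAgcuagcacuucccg
miR-106b-3p: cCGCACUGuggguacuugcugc

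In the miR-19 and miR-25/92 families the 3p strand is the guide, the strand that mainly enters Argonaute. In the miR-17 and miR-18 families the usual guide is the 5p strand, so that the table lists the partner strand for mir-18a, mir-93 and mir-106b. Counted from the 5′ end, miR-19a-3p and miR-19b-3p differ by 1 substitution, U11C (miR-19a base first), outside the seed. From miR-92a-3p to miR-25-3p there are 4, namely U1C, C14U, C18U and U22A, so these miRNAs differ in their first base and share the whole seed.

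The precursors are shown because copies with the same 3p miRNA differ in the stretch between the arms. Each is printed from the first base of the annotated 5p miRNA to the last base of the 3p miRNA, cut from the deposited hairpin sequence, with the bases between the annotated arms in capitals.
mir-19a: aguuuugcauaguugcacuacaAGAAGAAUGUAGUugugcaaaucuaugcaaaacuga
mir-19b-1: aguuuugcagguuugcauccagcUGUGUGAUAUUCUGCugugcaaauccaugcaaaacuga
mir-19b-2: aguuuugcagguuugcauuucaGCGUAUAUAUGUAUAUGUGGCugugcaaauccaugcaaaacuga
mir-92a-1: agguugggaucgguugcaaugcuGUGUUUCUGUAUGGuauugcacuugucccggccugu
mir-92a-2: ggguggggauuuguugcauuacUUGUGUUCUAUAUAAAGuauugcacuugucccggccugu
mir-25: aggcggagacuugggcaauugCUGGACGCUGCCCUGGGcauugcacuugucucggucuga
mir-18a: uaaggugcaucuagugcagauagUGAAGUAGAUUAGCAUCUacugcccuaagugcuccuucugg
mir-93: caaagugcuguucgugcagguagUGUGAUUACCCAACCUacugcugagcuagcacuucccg
mir-106b: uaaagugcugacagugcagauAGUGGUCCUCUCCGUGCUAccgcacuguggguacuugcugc

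These precursors lie in 3 places of the genome (GRCh38.p14, coordinates from the first to the last annotated mature base). On the plus strand of chromosome 13, mir-18a (chr13:91350756-91350819), mir-19a (chr13:91350904-91350961), mir-19b-1 (chr13:91351207-91351267) and mir-92a-1 (chr13:91351324-91351382) overlap an exon of 2 annotated transcripts of MIR17HG, the host gene of the cluster. On the minus strand of the X chromosome, mir-19b-2 (chrX:134169683-134169748) and mir-92a-2 (chrX:134169544-134169604) overlap an exon of AC002407.1. On the minus strand of chromosome 7, mir-106b (chr7:100094002-100094063), mir-93 (chr7:100093777-100093837) and mir-25 (chr7:100093571-100093630) fall in an intron of MCM7, which encodes a subunit of the replicative helicase.

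Across the 9 hairpins the scores went in both directions when the helicase domain was removed. The DICER-delHelicase score was higher in 5 hairpins, against 72.1% of all hairpins in the table, and lower in 4, against 25.9%. The 9 had a median score of 0.0601 under DICER-WT and 0.0591 under DICER-delHelicase, while that of all 147 hairpins was 0.0804 and 0.146. The median change was 0.00267 in the 9 and 0.0261 in all hairpins. Only mir-18a, mir-92a-1 and mir-92a-2 had a change above that overall median, so 6 of the 9 lay below it. In the order of all 147 scores, 7 of the 9 held a lower place with DICER-delHelicase than with DICER-WT, and only the 2 mir-92a copies held a higher one.

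**Figure D1:**
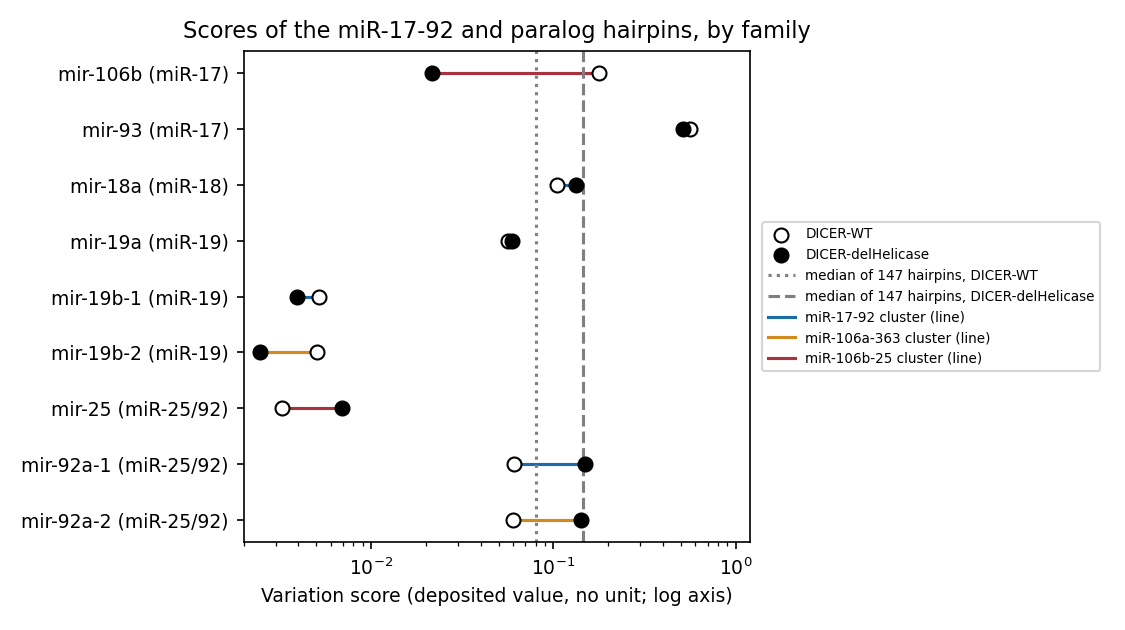
Variation scores on a log axis of the 9 hairpins, grouped by family, with DICER-WT (open) and DICER-delHelicase (filled) joined by a line coloured by genomic cluster. Vertical lines mark the medians of all 147 hairpins, 0.0804 and 0.146. The mir-106b line is the longest and runs to the left, while those of both mir-92a copies and of mir-25 run to the right.

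A difference of at least 0.05 was found in 4 of the 9 hairpins, against 57.8% of all hairpins. The higher score was that of DICER-delHelicase in 2 of them (mir-92a-1 and mir-92a-2), against 46.3% of all hairpins. It was that of DICER-WT in the other 2 (mir-93 and mir-106b), against 11.6% of all hairpins. The remaining 5 hairpins differed by at most 0.0288 between the constructs. Among them, mir-19b-1, mir-19b-2 and mir-25 had DICER-WT scores of 0.00517, 0.00506 and 0.00326. No deposited score was below 0, so a decrease of 0.05 was out of reach for them. The same holds for every hairpin of the table with a DICER-WT score under 0.05.

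**Figure D2:**
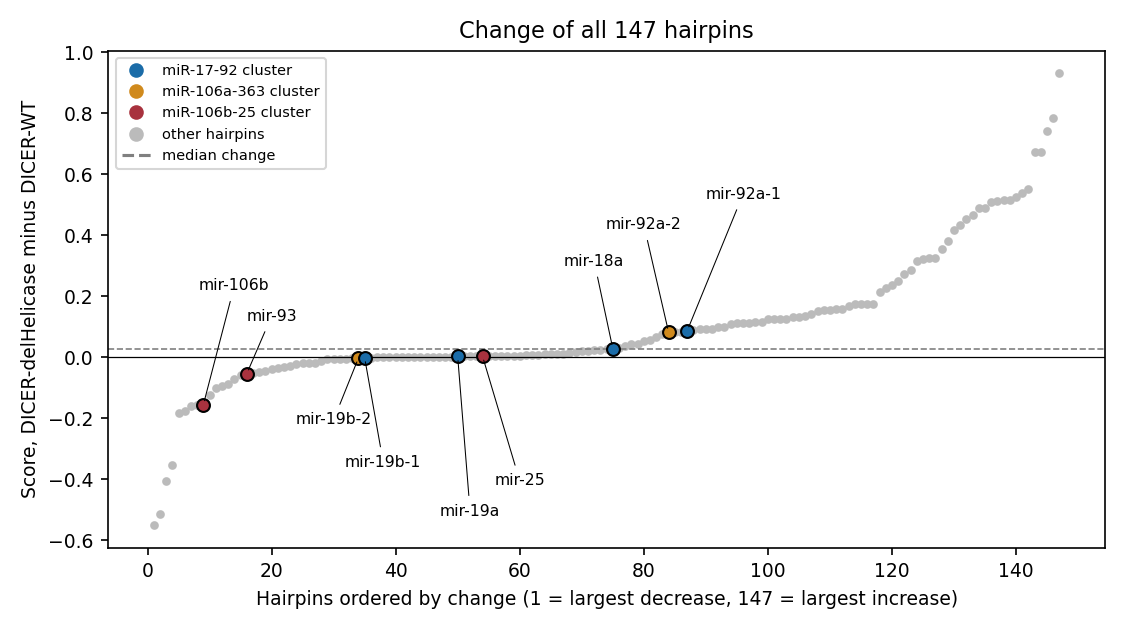
Change in score (DICER-delHelicase minus DICER-WT) of all 147 hairpins, ordered from the largest decrease to the largest increase, with the 9 hairpins coloured by genomic cluster and the median change of 0.0261 dashed. Members of miR-106b-25 include the 9th and 16th largest decreases (mir-106b and mir-93), and the member farthest right, mir-92a-1, stands at 0.0872.

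The miR-17 family was represented by mir-106b and mir-93, whose 5p guides share the family seed and repress cell-cycle inhibitors such as CDKN1A. The scores are listed with their 3p partner strands instead, whose seeds (CGCACUG and CUGCUGA) differ. Both hairpins scored lower without the helicase domain, as did 25.9% of all hairpins. For mir-106b, 0.177 with full-length DICER became 0.0215 without the domain, a change of -0.156. This made the DICER-WT score 8.24 times the other. It was the 9th largest decrease as a difference. As a log2 ratio with a pseudocount of 0.01 added to both scores, it was the lowest value of all 147 hairpins (-2.57), and the 3rd lowest with a pseudocount of 0.001. Its place among the scores went from 41st of 147 to 113th.

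The hairpin mir-93, its neighbour in the MCM7 intron, was the most variable of the 9 with either construct. It scored 0.564 with DICER-WT, the 5th highest in the table, and 0.510 with DICER-delHelicase, the 25th highest. The change of -0.0539 just passes the limit of 0.05 and is small against the level, since the DICER-WT score was 1.11 times the other. The score of mir-93 was 3.19 times that of mir-106b with DICER-WT and 23.8 times with DICER-delHelicase, so the family members lay further apart without the helicase domain.

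The miR-18 family was represented by mir-18a, whose maturation is known to be aided by the RNA-binding protein hnRNP A1. It scored 0.104 with DICER-WT and 0.133 with DICER-delHelicase, a change of 0.0288, which is close to the median change of all hairpins. The hairpin outside these clusters with the most similar pair of scores, by distance between ranks, was mir-3662 (0.106 and 0.137).

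The miR-19 family, the main oncogenic component of the cluster in MYC-driven lymphoma, had the smallest differences. The mir-19a hairpin scored 0.0564 under DICER-WT and 0.0591 under DICER-delHelicase. That of mir-19b-1 was 0.00517 and 0.00395, and that of mir-19b-2 was 0.00506 and 0.00245. All 3 changes lay between -0.00261 and 0.00267, on both sides of 0. As ratios the mir-19b copies were not alike: the DICER-WT score was 1.31 times the other for mir-19b-1 and 2.06 times for mir-19b-2. The depth behind scores this low is unknown.

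Within this family the level differed more than the response. Under DICER-WT the mir-19a score was 10.9 times that of mir-19b-1 and 11.2 times that of mir-19b-2. With DICER-delHelicase these ratios were 14.9 and 24.1. The miRNAs of these hairpins share the seed GUGCAAA and differ by the single substitution U11C, while the stretches between their arms, printed above, have different lengths (13, 15 and 21 nucleotides for mir-19a, mir-19b-1 and mir-19b-2). The hairpins most like the mir-19b copies in both scores were mir-15b (0.00463 and 0.00507) for both, then mir-27b for mir-19b-1 and mir-221 for mir-19b-2.

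The miR-25/92 family, with the seed AUUGCAC, had the higher score with DICER-delHelicase in all 3 hairpins, 2 of them copies of 1 miRNA, against 72.1% of all hairpins. miR-92a is known to restrain blood vessel growth. From DICER-WT to DICER-delHelicase, mir-92a-1 went from 0.0610 to 0.148, 2.43 times as high. The copy mir-92a-2 went from 0.0601 to 0.142, 2.36 times as high. For mir-25 the scores were 0.00326 and 0.00693, 2.12 times as high, but with a change of only 0.00367 at scores as low as those of mir-19b. With a pseudocount of 0.01 the log2 ratios were 1.16 for mir-92a-1, 1.12 for mir-92a-2 and 0.35 for mir-25, so the ratio of mir-25 depends on the pseudocount. The levels differed widely: the mir-92a-1 score was 18.7 times that of mir-25 with DICER-WT and 21.4 times with DICER-delHelicase.

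One hairpin outside the 3 clusters, mir-92b on chromosome 1, has the same seed in its 3p miRNA, which is shown for comparison with miR-92a-3p.
miR-92b-3p: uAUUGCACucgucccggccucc
Its scores were 0.0334 and 0.132, a change of 0.0988. Its DICER-delHelicase score was the higher one, as in 72.1% of all hairpins, and was 3.96 times the DICER-WT score. It was 10.2 times as high as that of mir-25 with DICER-WT and 19.1 times with DICER-delHelicase. No hairpin outside the 3 clusters was found with any of the other 4 seeds, among the 136 of 147 hairpins whose miRNA was matched in the RefSeq table.

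By genomic cluster, the scores did not go one way within a transcript. In miR-17-92, 3 of 4 hairpins scored higher with DICER-delHelicase (median change 0.0157), close to the 72.1% of all hairpins. In miR-106a-363 it was 1 of 2, mir-92a-2 but not mir-19b-2. In miR-106b-25 it was 1 of 3 (median change -0.0539). The mir-19b and mir-92a precursors are neighbours both in miR-17-92 and in miR-106a-363. In either cluster the change of mir-92a was above 0.08, while mir-19b differed by less than 0.003. The mir-19b scores started at 0.00517 and 0.00506 with DICER-WT, which left little room for a decrease. As ratios the contrast was smaller. In miR-106a-363, mir-19b-2 was 2.06 times as high with DICER-WT, and mir-92a-2 was 2.36 times as high with DICER-delHelicase. In miR-17-92 the same ratios were 1.31 for mir-19b-1 and 2.43 for mir-92a-1. These clusters hold copies with the same 3p miRNAs, so their likeness is not shown to come from separate measurements. In miR-106b-25 the precursors start 226 and 433 nucleotides after mir-106b, in the order mir-106b, mir-93 and mir-25, and their changes were -0.156, -0.0539 and 0.00367. Each of these sets is too small to call anything particular to a cluster.

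**Figure D3:**
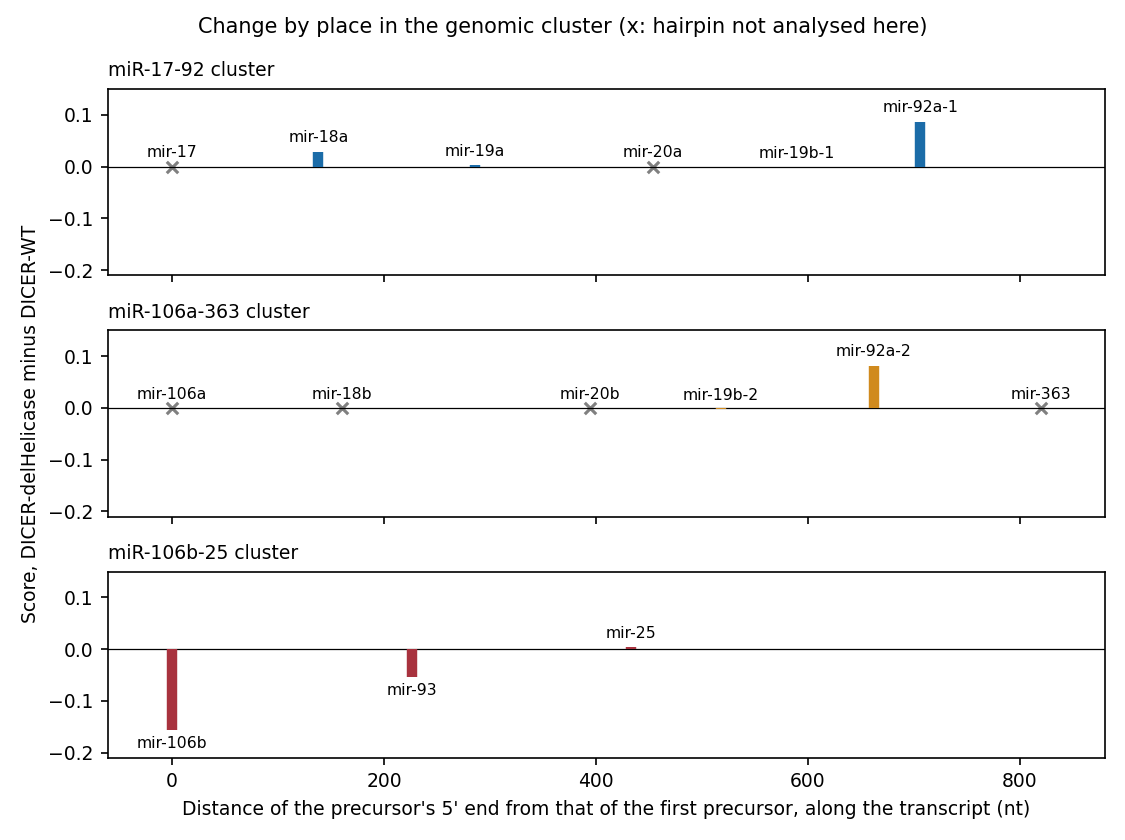
Change in score by place in each cluster, with the distance along the transcript in nucleotides from the 5′ end of the first precursor; bars start at 0 and crosses mark hairpins not analysed here. The bars of mir-92a-1 and mir-92a-2 stand at 0.0872 and 0.0819 beside mir-19b bars near 0, and miR-106b-25 holds the only bars that reach below -0.05. Bars show differences and not ratios, and the mir-19b scores were low with both constructs.

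Copies of 1 miRNA lay close together as differences, with stretches between the arms that differ in length. Under DICER-WT the mir-19b copies lay 0.000108 apart and under DICER-delHelicase 0.00150, with stretches of 15 and 21 nucleotides. As a ratio, mir-19b-1 scored 1.02 times mir-19b-2 with DICER-WT and 1.61 times with DICER-delHelicase. The mir-92a copies lay 0.000898 and 0.00618 apart, with stretches of 14 and 17 nucleotides. The copies share the whole 3p miRNA plus 2 bases before it for mir-19b and 1 base before it for mir-92a, and no base after it. A read of the 3p miRNA alone therefore fits both copies, and neither the labels nor the header state how the authors assigned such reads. The scores of copies are thus not shown to be separate measurements. Among other copies, mir-9-1 and mir-9-2 had the same scores (0.166 with DICER-WT and 0.325 with DICER-delHelicase). Those of mir-9-3 differed slightly (0.166 and 0.320). This is 1 example of the 16 miRNAs with several hairpins, and not all copies were so close. For instance, mir-29b-1 scored 0.163 with DICER-WT and 0.128 with DICER-delHelicase, and mir-29b-2 scored 0.143 and 0.113. Whether reads were counted at several copies was not tested.

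Beyond the scores, all 9 hairpins had their main DICER-WT 5′ end at an offset of 0, as had 140 of the 147. The table's 2-nt class, which its header derives from DICER-WT products, was Yes for mir-18a, mir-19b-1 and mir-93 and No for the other 6, against 73 Yes of 147. This class divided the mir-19b copies, whose DICER-WT scores were nearly equal. It also divided the copies of 7 other miRNAs, 8 of the 16 with several hairpins in all. Of the 3 Yes hairpins, 1 (mir-18a) scored higher with DICER-delHelicase, and of the 6 No hairpins 4 did, against 72.1% of all hairpins. These counts are too small to relate the class to the direction.

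The stretch between the annotated arms was 13 nucleotides in mir-19a, the shortest of the 9, and 21 in mir-19b-2, the longest. The median of the 95 hairpins in which both arms could be placed was 16 (quartiles 14 and 18). For mir-106b, with the largest decrease of the 9, it was 19, and for mir-93 it was 16. In the minimum free energy fold of the deposited hairpin, a prediction and not a measurement, the first base of the 3p miRNA was paired in mir-18a, mir-19b-1, mir-92a-1, mir-92a-2, mir-93 and mir-106b and unpaired in mir-19a, mir-19b-2 and mir-25. It was paired in 81 of the 95 hairpins. Of the 10 bases around this cut (5 before and 5 after), 0 were unpaired in mir-92a-1 and 1 in mir-18a and mir-93. There were 2 in mir-25, mir-92a-2 and mir-106b, 3 in mir-19a and mir-19b-1 and 4 in mir-19b-2. The median of the 95 hairpins was 2.

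Other hairpins made from clustered or duplicated transcripts are given for contrast. Beside 72.1% of all hairpins and their median change of 0.0261, the miR-23/27/24 clusters had 5 of 6 hairpins higher with DICER-delHelicase and a median change of 0.0116. The miR-200 family had 3 of 4 and 0.0243. The miR-15/16 group had 2 of 3 and a median of 0.000442, with changes from -0.124 to 0.527 and a mean of 0.134. No test of a difference between these lists and the 9 hairpins was run.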

How the data were processed

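Per the labels' protocols, a small RNA fraction from 10 µg of total RNA was cut from a 12% urea gel and sequenced as TruSeq small RNA libraries, 6 in all. The submitters' processing notes name Cutadapt, Bowtie2, bedtools and GRCh38 without versions or settings. The authors deposited a variation score, 1 per hairpin and construct (294 lines), whose formula and pooling of samples no label or header states. A second deposited column, other than the score, holds the major 5′ end with DICER-WT and was read as an offset in nucleotides.

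The report used differences and ratios of scores, ranks over 147 hairpins, RefSeq mature sequences, GENCODE 29 genes and RNAfold 2.7.2 folds (Python 3.11.15, pandas 2.3.3). Counting steps were tested on simulated data. A hairpin was counted past 0.05 by the size of the difference alone, since no value per sample allowed a test. All matched hairpins were named, each with the outside hairpins nearest in rank as candidates (2 for each). Members, lists and limits were chosen with earlier results of these data known. Alternatives were other summaries, limits, scales and lists.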

Additional observations from a re-analysis of the deposited data

How the results depend on the processing

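Of 32 alternative values, 26 were classed as unchanged, 3 reversed and 3 moved. For medians, unchanged meant the same direction and a value within -0.0539 to 0.0819. That range was built as a confidence interval of the median over the 9 changes. It treats the hairpins as independent, which they are not shown to be, and they are not replicates of a condition. It therefore serves only as a labelling range and gives no error of any score. It spans most of the 9 changes and so says little: the median of 0.0157 without the miR-106b-25 cluster is classed as unchanged. On the log2 scale only the direction was judged. With the same pseudocount added to both scores, that direction is fixed by the direction of the differences. Most of the 26 are such log2 values, which could only come out as unchanged. The median of 0.00267 turned to a mean of -0.00101, to -0.00261 without the miR-17-92 cluster and to -0.0234 when counted from the median of all hairpins, an alternative chosen after seeing the data. The cause was not tested. The count of 5 hairpins with the higher score under DICER-delHelicase became 3 for differences of at least 0.005, and 3 when counted from the median of all hairpins. Of the 4 hairpins past 0.05, 1 (mir-106b) passed 0.1. A ratio of at least 2 with a pseudocount of 0.01 was met by 3, both mir-92a copies and mir-106b, so mir-93 is called as a difference only. No paired analysis was possible because neither construct has values for its single replicates, which is also why none was left out. The depth is unknown, so how far it limits the scores of mir-19b and mir-25, all under 0.01, was not tested.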
